A study of Mus musculus with 32 samples.

Results

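The 4 enzymes described here, *Cyp7a1*, *Hsd3b7*, *Akr1d1* and *Cyp8b1*, are among the ring-modifying enzymes of the classic pathway of bile acid (BA) synthesis. They were taken by gene symbol from a liver RNA-Seq table of 54532 genes, in which each symbol had 1 row. The study asked whether the ileal BA transporter inhibitor (IBATi) SC-435 protects *Cyp2c70* knockout (KO) mice, which cannot make muricholic acids, from liver injury. All 32 mice were C57BL/6 animals killed at 12 weeks of age, and they formed 8 groups of 4 by sex, genotype and diet. The WT groups carried intact *Cyp2c70* and the KO groups were cyp2c70 -/-, from a founder line in which CRISPR-Cas9 removed exon 2. Each genotype was fed either chow or chow with 0.006% SC-435, about 11 mg/kg/day, and the sources differ on its start: the sample labels put it 3 weeks after weaning, the study's scheme at weaning, so the length of treatment is not settled. The deletion is present in every tissue, and the mice were not fasted before tissue collection.

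BAs are made from cholesterol in the hepatocyte. In the classic pathway CYP7A1, the rate-limiting cholesterol 7α-hydroxylase, starts the sequence, HSD3B7 oxidizes the 3β-hydroxyl group and AKR1D1 reduces the steroid ring, while CYP8B1, the sterol 12α-hydroxylase, sends intermediates to cholic acid in place of chenodeoxycholic acid. BAs that return from the intestine repress *Cyp7a1* and *Cyp8b1* through FXR, partly through SHP (*Nr0b2*) in the liver and partly through intestinal FGF15, which signals to hepatocytes through FGFR4 and β-Klotho (*Klb*). IBAT takes up BAs in the ileum, and its inhibition is known to lower that return.

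In GRCm38, *Cyp7a1* (ENSMUSG00000028240) lies on the minus strand at chr4:6265612-6275633 with 6 exons, *Hsd3b7* (ENSMUSG00000042289) on the plus strand at chr7:127800604-127803802 with 7 exons, *Akr1d1* (ENSMUSG00000038641) on the plus strand at chr6:37530173-37568815 with 9 exons, and *Cyp8b1* (ENSMUSG00000050445) on the minus strand at chr9:121914356-121916305 with 1 exon. Promoter sequences from RefSeq (GRCm38.p6) were found for 3 of the 4 genes; *Cyp7a1* had no entry. The 100 bases before the transcription start of *Cyp8b1* and *Akr1d1* are shown because these genes had the largest and the smallest range of group means among the 3 enzymes counted at depth. Capitals mark, in order, the matched run for HNF4 and NR5A2 (LRH-1), which are known activators of *Cyp8b1*, and a TATA box.

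Cyp8b1, chr9:121916306-121916405, minus strand: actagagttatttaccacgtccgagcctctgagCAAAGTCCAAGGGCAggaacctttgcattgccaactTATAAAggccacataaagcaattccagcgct
Akr1d1, chr6:37530073-37530172, plus strand: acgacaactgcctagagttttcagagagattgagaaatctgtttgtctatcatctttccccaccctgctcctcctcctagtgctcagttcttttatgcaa

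The letters searched on both strands of the 250 bases before the start were CAAAGNCCA for HNF4, CAAGGNCA for NR5A2 and TATAAA. In *Cyp8b1* the HNF4 match covered positions -67 to -59, the NR5A2 match -60 to -53, so that they overlapped, and TATAAA -31 to -26, all on the strand of the gene. *Akr1d1* and *Hsd3b7* held no match to these letters in this window. Among 32851 promoters, 1.7% held the HNF4 letters, 5.53% the NR5A2 letters and 12.4% TATAAA, and a match is a description of the sequence, not evidence of binding.

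Library totals lay between 36476021 and 44771350 counts. Levels are given as CPM, counts relative to library size with TMM factors set over the 32 libraries, and levels of different genes are compared only as CPM per kb of the deposited gene length. *Cyp2c70*, counted over the whole gene, lay between 271 and 838 CPM in WT mice and between 109 and 188 CPM in KO mice, so every library fitted its genotype label. The library of male WT chow replicate 1 stood apart, with a TMM factor of 0.622 where the other 31 lay between 0.911 and 1.26, and a mean correlation of 0.918 with its group against 0.962 to 0.989 elsewhere. In the text, log2 fold changes of the 4 enzymes from the main fits that rest on it are given with and without it. Group means, their orders and overlaps, the gene lists and the correlations over the 32 mice include it unless stated. In male WT SC-435 replicate 4 the 10 genes of the inflammatory list summed to 19298 CPM, where the other 3 mice of that group lay between 46.7 and 78.3 and no other mouse exceeded 496. Nothing in the labels says how mice were caged or bred, so p values measure the spread between these mice.

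SC-435 raised 3 of the 4 enzymes, *Cyp7a1*, *Cyp8b1* and *Akr1d1*, in female WT, female KO and male KO mice. In KO against WT females *Cyp8b1* was lower on chow, a call that held in 3 of the 8 fits that left out a library, and lower on SC-435. A gene passed at an adjusted p under 0.05 over all genes tested. With SC-435, 3 of 4 enzymes rose in female WT mice, where 4.28% of all genes tested passed in either direction, in female KO mice, where 17.8% passed, and in male KO mice, where 17.2% passed. The median log2 fold change of the 4 enzymes in these comparisons was 1.51, 2.01 and 1.97, beside 0.00, -0.02 and -0.03 for all genes. In male WT mice none of the 4 passed, and 0.0394% of genes did. Without male WT chow replicate 1, 2 of the 4 passed there, and 2.53% of genes did. In KO against WT females, 1 of 4 enzymes fell on chow (14.9% of genes passed) and the same count, also *Cyp8b1*, fell on SC-435 (10.9% passed). Among males, none of the 4 passed between genotypes on chow (1.08% of genes) or on SC-435 (0.0324% of genes). Leaving out that library gave 1 of 4 on chow (7.30%). KO mice on SC-435 against WT mice on chow had 3 of 4 enzymes higher in females (16% of genes passed). None passed in males (0.208%), or 3 of 4 without male WT chow replicate 1 (12.2%). Female against male mice on chow differed in none of the 4 in WT (1.49% of genes) and in 1 of 4, *Akr1d1*, in KO (2.73%). The WT count was 1 without male WT chow replicate 1 (9.53%). Several comparisons share a group: the female KO chow mice, for example, serve both the genotype and the diet comparison.

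**Figure D1:**
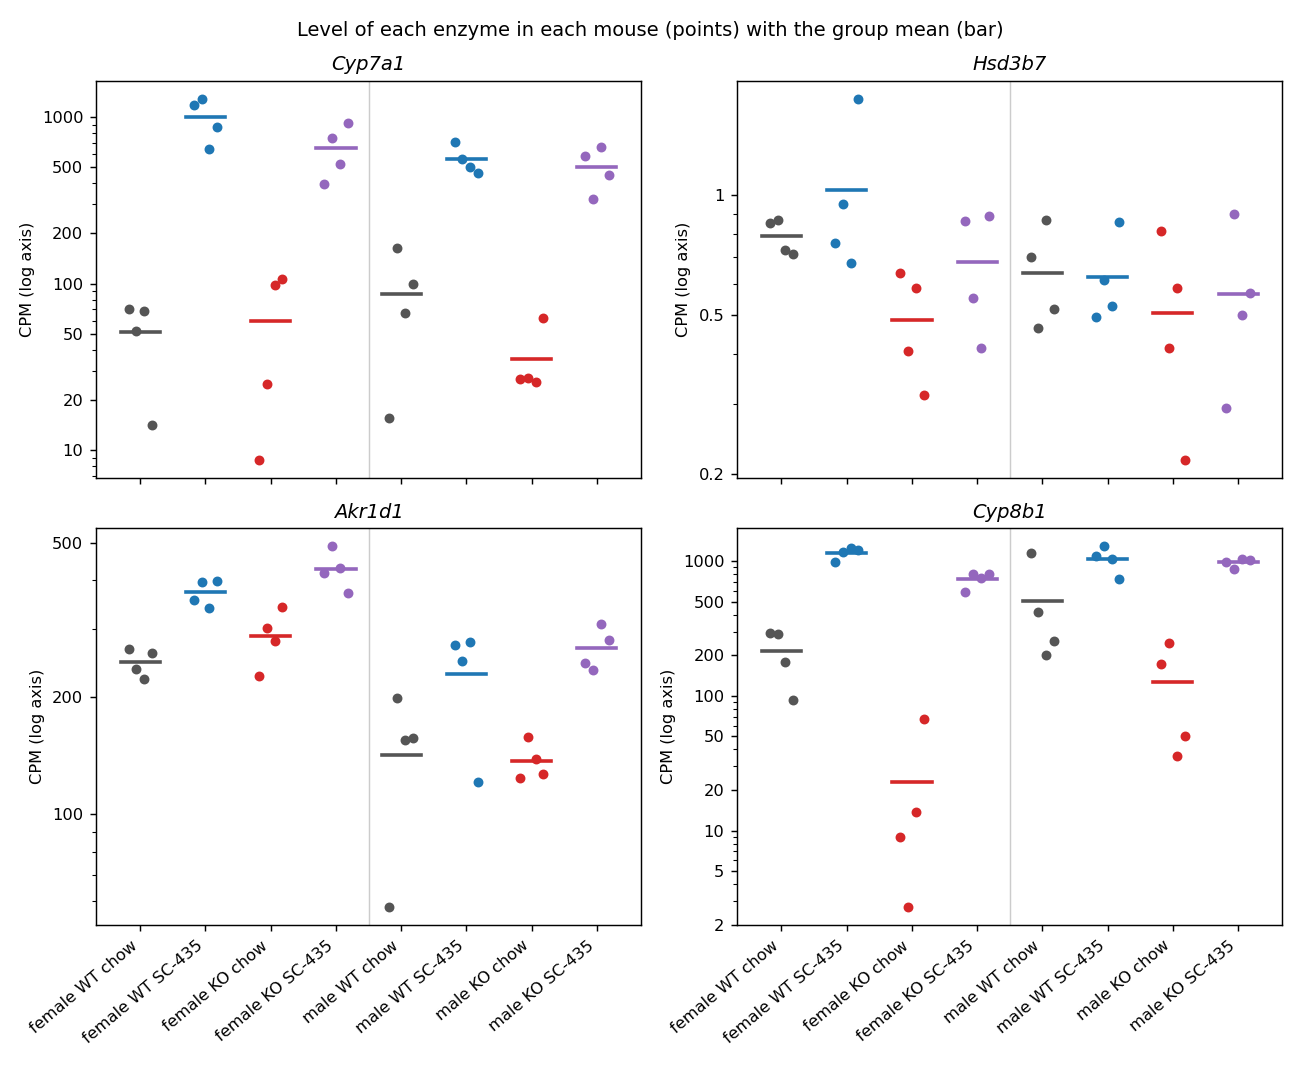
Level of each enzyme in CPM on a log axis, with 1 point per mouse and a bar at the mean of the 4 mice, for the 8 groups. For *Cyp7a1* each SC-435 mouse lies above each chow mouse of either sex, while *Cyp8b1* in female KO mice on chow reaches down to 2.69 CPM and *Hsd3b7* stays between 0.217 and 1.75 CPM.

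*Cyp7a1* was higher in every mouse on SC-435 than in every mouse on chow. In WT females on chow its level was 69.96, 52.2, 68.0 and 14.2 CPM, a mean of 51.1 ± 25.8 (SD, n = 4), and on SC-435 it was 1184, 1279.8, 641 and 874 CPM, a mean of 995 ± 292 (SD, n = 4). The log2 fold change was 4.28 (SE 0.47, adjusted p = 0.00291). Female KO mice on chow had 8.74, 24.9, 97.6 and 107 CPM, so that 2 mice lay above all the WT females and replicate 1 below all of them. On SC-435 the female KO mice had 396, 752, 518 and 925 CPM, and the log2 fold change from chow was 3.45 (SE 0.69, adjusted p = 0.00993). Both rises passed in all 8 fits that left out a library and in the 6 other settings tried.

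The genotypes were not separated by *Cyp7a1*. On chow the female KO mean of 59.6 ± 50.0 CPM (SD, n = 4) was close to that of WT with a log2 fold change of 0.21 (SE 0.70, adjusted p = 0.871), and its sign turned when female WT chow replicate 4 or female KO chow replicate 3 or 4 was left out (-0.10, -0.12 and -0.21). On SC-435 the KO mean was 648 ± 236 CPM (SD, n = 4), with a log2 fold change from WT of -0.61 (SE 0.27, adjusted p = 0.175). Compared with WT females on chow, female KO mice on SC-435 were higher by a log2 fold change of 3.66 (SE 0.45, adjusted p = 0.00071).

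In males, *Cyp7a1* in WT mice on chow was 15.6, 163, 66.6 and 99.5 CPM, and on SC-435 it was 712, 562, 502 and 460.2 CPM. The groups did not overlap and the log2 fold change was 2.70 (SE 0.58), yet the adjusted p was 0.255. Without male WT chow replicate 1, whose value was the lowest, the log2 fold change was 2.35 and the adjusted p 0.00844, and over all alternatives the adjusted p ran from 0.000286 to 0.796. Male KO mice had 26.7, 27.0, 25.5 and 62.4 CPM on chow and 580.1, 322, 662 and 449.8 CPM on SC-435. That rise, a log2 fold change of 3.83 (SE 0.37, adjusted p = 0.000561), passed under each alternative. KO against WT males on chow had a log2 fold change of -1.25 (SE 0.61, adjusted p = 0.367), which became -1.61 with an adjusted p of 0.0486 without male WT chow replicate 1, within a range over the alternatives from 0.0486 to 0.607. On SC-435 the male genotypes overlapped, at a log2 fold change of -0.15 (SE 0.22, adjusted p = 0.854).

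From lowest to highest, the group means of *Cyp7a1* ran from male KO chow (35.4 CPM) through female WT chow, female KO chow and male WT chow (86.2 CPM) to male KO SC-435 (504 CPM), male WT SC-435, female KO SC-435 and female WT SC-435 (995 CPM). Each group overlapped the next one in this order except at the step from chow to SC-435. The highest group mean was 28.1 times the lowest.

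*Hsd3b7*, the next enzyme of the pathway, was scarcely counted in this table. Its row held 12 to 78 counts per library, or 0.217 to 1.75 CPM, and 0.176 to 0.373 CPM per kb as group means. Of its 2769 exonic bases in the annotation, 99.2% also belong to exons of another gene. On the same strand, the read-through gene *Gm49388* covers 62.0% of them and had 0 to 1 counts in any library, and on the opposite strand *9430064I24Rik* covers 62.4% and had 0 to 21 counts. A counter that leaves out reads on shared bases would lower all 3 rows, and whether this was so here was not tested, since the counting options are not given in the sources used here. The row is therefore given as counted and not as a level of the transcript.

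None of the 16 tests of *Hsd3b7* passed. Female WT mice on chow had 0.853, 0.870, 0.728 and 0.712 CPM and female KO mice on chow 0.638, 0.407, 0.585 and 0.316 CPM. These groups did not overlap, and the log2 fold change was -0.70 (SE 0.28, adjusted p = 0.123). With SC-435 the log2 fold change was 0.38 in female WT (adjusted p = 0.538), 0.48 in female KO (adjusted p = 0.351), -0.03 in male WT (adjusted p = 0.985) and 0.17 in male KO mice (adjusted p = 0.815). The male WT value was 0.014 (adjusted p = 0.988) without male WT chow replicate 1. Female WT SC-435 replicate 4 had the highest value, 1.75 CPM, where the other mice of its group lay between 0.677 and 0.951.

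*Akr1d1*, the steroid 5β-reductase, had smaller log2 fold changes with SC-435 than *Cyp7a1* and *Cyp8b1* in both sexes and genotypes. Female WT mice had 266, 237, 223 and 260.2 CPM on chow and 356, 395, 339 and 399 CPM on SC-435. The log2 fold change was 0.59 (SE 0.09, adjusted p = 0.0108), and with all 32 libraries in 1 fit the adjusted p was 0.314. Female KO mice had 227, 302, 279 and 342 CPM on chow and 418, 489, 429.97 and 370.03 CPM on SC-435, again without overlap, at a log2 fold change of 0.57 (SE 0.13, adjusted p = 0.0179). This call was lost without female KO SC-435 replicate 2 (log2 fold change 0.50, adjusted p = 0.0622) or replicate 3 (0.57, adjusted p = 0.0507), within a range over the alternatives from 0.000565 to 0.151.

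On chow each male mouse had less *Akr1d1* than each female mouse. In KO mice on chow the males had 124, 158, 139 and 127 CPM, all below the females, and the female to male log2 fold change was 1.09 (SE 0.14, adjusted p = 0.00475), which passed under each alternative. In WT mice on chow the males had 57.7, 199, 156 and 157 CPM, also all below the females, with a log2 fold change of 0.78 (SE 0.33, adjusted p = 0.449). Without male WT chow replicate 1, the mouse with 57.7 CPM, it was 0.53 with an adjusted p of 0.0224, within a range from 0.0224 to 0.745. SC-435 took male KO mice to 245, 235, 308 and 280.2 CPM, a log2 fold change of 0.97 (SE 0.12, adjusted p = 0.0017). Male WT mice on SC-435 had 272, 248, 277 and 121 CPM, which overlapped the chow group, and the log2 fold change was 0.69 (SE 0.39, adjusted p = 0.836). It was 0.43 (adjusted p = 0.421) without male WT chow replicate 1 and 0.90 (adjusted p = 0.845) without male WT SC-435 replicate 4, the mouse with 121 CPM and the high inflammatory sum, whose part in this level was not tested. Genotype groups did not pass for *Akr1d1* in either sex on either diet, with log2 fold changes of 0.21 and -0.03 on chow and 0.20 and 0.22 on SC-435 in females and males. The male values were -0.30 (adjusted p = 0.169) on chow without male WT chow replicate 1 and 0.0071 (adjusted p = 0.988) on SC-435 without male WT SC-435 replicate 4. With library totals alone as the scaling, which moved the median of all genes to 0.17, the value in females on chow was 0.40 with an adjusted p of 0.046. The group means of *Akr1d1* ran from 137 CPM in male KO chow to 427 CPM in female KO SC-435 mice, 3.12 times as high, and each group overlapped the next.

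*Cyp8b1* was the enzyme that differed most between groups, by 50.1 times between the highest and the lowest group mean. Female WT mice on chow had 294, 288, 179.9 and 92.9 CPM (214 ± 96.0, SD, n = 4), and female KO mice on chow had 8.90, 2.69, 13.7 and 67.1 CPM (23.1 ± 29.7, SD, n = 4). Each KO female lay below each WT female, and the ratio of the means was 9.25. The log2 fold change was -3.22 (SE 0.84, adjusted p = 0.0287). On the CPM scale replicate 4 of the KO mice stood apart from the other KO females. Without replicate 4 the log2 fold change was -4.65 with an adjusted p of 0.000714, the lowest of the 8 fits that left out a library. The call was lost without female WT chow replicate 1 (-3.03, adjusted p = 0.0631), replicate 2 (-3.05, 0.0647) or replicate 3 (-3.30, 0.0508), or without female KO chow replicate 1 (-2.94, 0.0680) or replicate 3 (-3.03, 0.0823), while the direction stayed in all 8 such fits. Adjusted p ran from 0.000714 to 0.0823 over the alternatives.

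On SC-435 *Cyp8b1* was high in each female. Female KO mice rose to 589, 803, 753 and 799 CPM (736 ± 101, SD, n = 4), 31.9 times the KO chow mean, at a log2 fold change of 5.0 (SE 0.85, adjusted p = 0.00575). Female WT mice rose to 994, 1163, 1256 and 1216 CPM (1157 ± 115, SD, n = 4), 5.42 times the WT chow mean, at a log2 fold change of 2.43 (SE 0.31, adjusted p = 0.00581). With all 32 libraries in 1 fit the adjusted p of the WT rise was 0.0655. All 4 treated KO females thus stayed below all 4 treated WT females, and that difference, a log2 fold change of -0.65 (SE 0.11, adjusted p = 0.00646), held without any 1 library and was lost when all 32 libraries shared 1 fit (adjusted p = 0.824). Against WT females on chow, treated KO females were higher by a log2 fold change of 1.78 (SE 0.30, adjusted p = 0.00315), or 0.107 in the fit of 32 libraries.

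The difference between the responses of *Cyp8b1* in KO and WT females was tested directly. The interaction was 2.57 on the log2 scale (SE 0.87, adjusted p = 0.113), and none of the 4 enzymes passed, where 2.64% of genes did. Without female KO chow replicate 4 the interaction was 4.01 with an adjusted p of 0.000526, within a range from 0.000526 to 0.29 over the alternatives. In males the interaction was 1.91 (SE 0.79, adjusted p = 0.320), and again none of the 4 enzymes passed, where 0.0906% of genes did. It was 1.13 (adjusted p = 0.359) without male WT chow replicate 1, and adjusted p ran from 0.171 to 0.566 over the alternatives.

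Relative to the mean, *Cyp8b1* was more spread in WT males than in WT females and less spread in KO males than in KO females. The SD as a percentage of the mean on chow was 86.3 in male and 44.9 in female WT mice, and 80.2 and 128.5 in KO mice. On SC-435 it was 21.7 and 9.97 in WT, and 7.72 and 13.7 in KO mice. WT males on chow had 1152, 423, 203 and 258 CPM, of which replicate 1 was as high as mice on SC-435. KO males on chow had 171, 248, 35.95 and 50.1 CPM. The genotype groups overlapped, and the log2 fold change was -1.98 (SE 0.73, adjusted p = 0.235), or -1.21 (adjusted p = 0.249) without male WT chow replicate 1. Adjusted p ran from 0.0246 to 0.568 over the alternatives. With SC-435 KO males rose to 989, 876, 1043 and 1029 CPM, a log2 fold change of 2.97 (SE 0.56, adjusted p = 0.011). WT males on SC-435 had 1099, 1288, 1032 and 742 CPM, and the log2 fold change from chow was 1.03 (SE 0.52, adjusted p = 0.836). Without male WT chow replicate 1 that change was 1.82 with an adjusted p of 0.0163, within a range from 0.0163 to 0.993. KO against WT males on SC-435 had a log2 fold change of -0.08 (SE 0.15, adjusted p = 0.897), or -0.21 (adjusted p = 0.478) without male WT SC-435 replicate 4. From lowest to highest, the group means of *Cyp8b1* were 23.1 CPM in female KO chow, 126 in male KO chow, 214 in female WT chow, 509 in male WT chow, 736 in female KO SC-435, 984 in male KO SC-435, 1040.4 in male WT SC-435 and 1157 CPM in female WT SC-435 mice. Neighbours in this order overlapped except female KO and male KO mice on SC-435. The overlap of male WT chow with female KO SC-435 mice rested on male WT chow replicate 1 alone. The highest of the other male WT chow mice, at 423 CPM, lay below the lowest female KO SC-435 mouse, at 589 CPM.

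Male KO mice on SC-435 were also compared with male WT mice on chow. *Cyp7a1* was at a log2 fold change of 2.55 (adjusted p = 0.192), *Cyp8b1* at 0.97 (adjusted p = 0.697) and *Akr1d1* at 0.91 (adjusted p = 0.480). Without male WT chow replicate 1 all of these passed, at 2.20 (adjusted p = 0.00425), 1.75 (adjusted p = 0.00214) and 0.65 (adjusted p = 0.0112), and 12.2% of genes then passed. The ranges of adjusted p over the alternatives were 0.000916 to 0.611, 0.00214 to 0.996 and 0.0112 to 0.985.

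Sex differences in the responses did not pass. In KO mice the difference between the female and male response to SC-435 was 2.02 on the log2 scale for *Cyp8b1* (SE 1.0, adjusted p = 0.427), and none of the 4 enzymes passed, where 0.211% of genes did. Without female KO chow replicate 4 it was 3.49 with an adjusted p of 0.0444, within a range from 0.0444 to 0.559. On chow the difference between the female and male effect of genotype was 1.5 for *Cyp7a1* (SE 1.01, adjusted p = 0.901) and -1.19 for *Cyp8b1* (SE 1.16, adjusted p = 0.93). None of the 4 passed there, where 0.0235% of genes did. Without male WT chow replicate 1 these were 1.86 (adjusted p = 0.414) and -1.995 (adjusted p = 0.496). For *Cyp8b1* itself, female KO mice on chow had a log2 fold change of -2.44 against male KO mice (SE 0.96, adjusted p = 0.234), within a range from 0.0268 to 0.438.

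**Figure D2:**
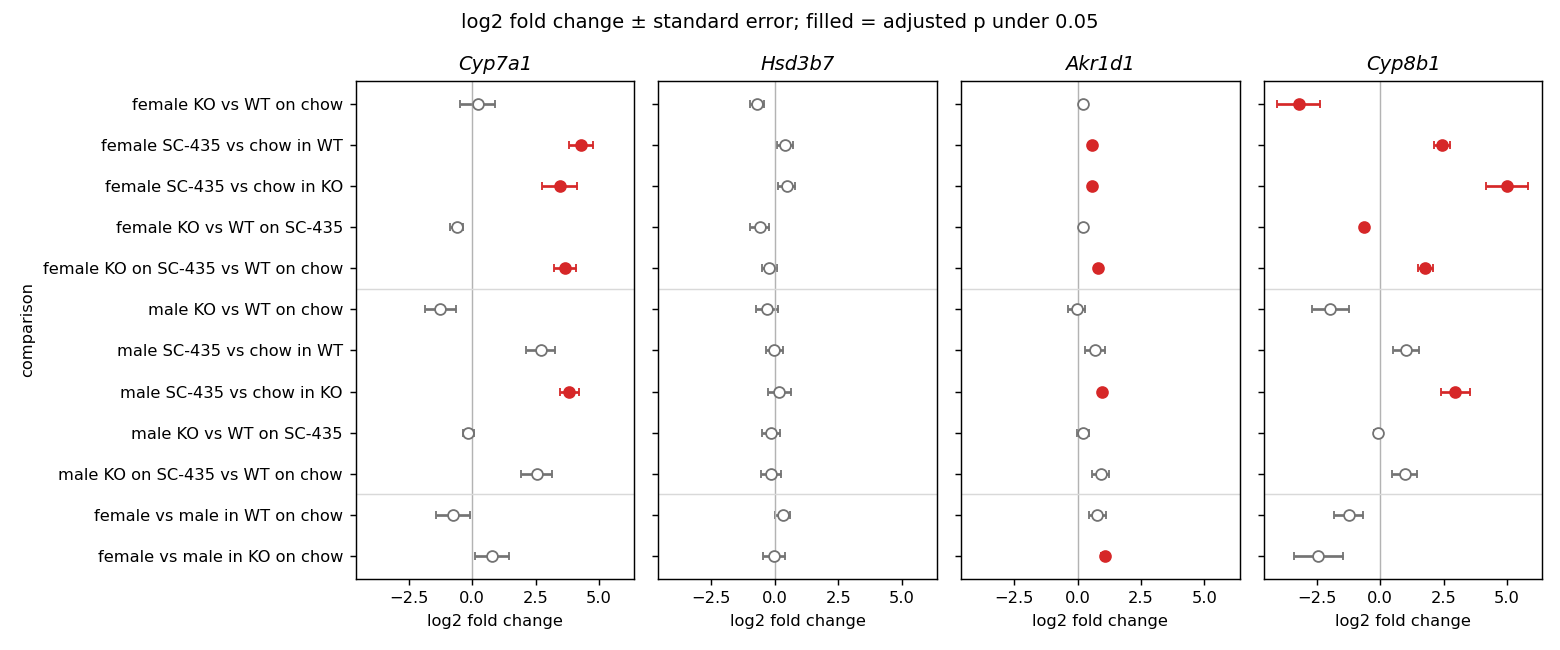
log2 fold change of each enzyme (point) with its standard error (bar) in the 12 comparisons of 2 groups of 4 mice, filled where the adjusted p was under 0.05. *Cyp7a1* and *Cyp8b1* have large positive values for SC-435, from 1.03 to 5.0, *Akr1d1* smaller ones, from 0.57 to 0.97, and *Hsd3b7* has open symbols throughout.

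Set per length, the balance of the enzymes moved between groups. In WT females on chow, *Cyp8b1* was at 109.5, *Akr1d1* at 85.2 and *Cyp7a1* at 12.2 CPM per kb as group means. In female KO mice on chow the corresponding levels were 11.8, 99.4 and 14.3 CPM per kb, so that *Cyp8b1* was no longer above *Cyp7a1*. On SC-435 they were 593, 129 and 238 CPM per kb in WT females and 378, 148 and 155 CPM per kb in KO females.

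The ratio of *Cyp8b1* to *Cyp7a1* in each mouse, as a log2 ratio of counts per kb, needs no scaling between libraries. It was 3.17, 3.56, 2.50 and 3.81 in WT females on chow and 1.12, -2.11, -1.74 and 0.42 in KO females on chow, with no overlap. The means differed by -3.83 (two-sided exact permutation p = 0.0286, the smallest that 4 against 4 can give; 0.0857 after adjustment over the 12 comparisons). With SC-435 the ratio was lower than on chow in WT females, by -1.90 (exact permutation p = 0.0286, adjusted 0.0857), and higher in KO females, by 1.92 (exact permutation p = 0.0571, adjusted 0.114). The treated groups met at 1.36 ± 0.57 in WT and 1.35 ± 0.38 in KO females (SD, n = 4 each). In WT males the ratio was 7.30 in replicate 1 and 2.47, 2.70 and 2.47 in the others on chow, and 1.99 ± 0.27 on SC-435 (SD, n = 4), a difference of -1.75 (exact permutation p = 0.0286, adjusted 0.0857) that was -0.56 without replicate 1. KO males had 3.78, 4.30, 1.59 and 0.78 on chow and 2.11 ± 0.37 on SC-435 (SD, n = 4). No difference in the ratio passed after adjustment, and with 4 against 4 and 12 comparisons none of this size could unless more of them reached the smallest p.

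**Figure D3:**
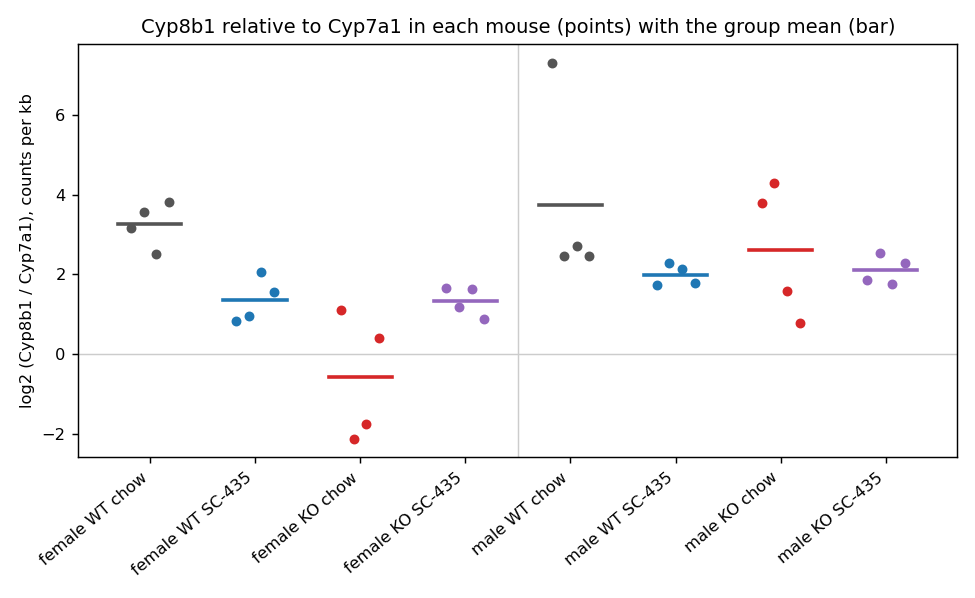
log2 of *Cyp8b1* over *Cyp7a1*, each in counts per kb, with 1 point per mouse and a bar at the mean of the 4 mice in each of the 8 groups. Female KO mice on chow lie lowest, from -2.11 to 1.12, male WT chow replicate 1 lies at 7.30, and the SC-435 groups lie between 0.85 and 2.54.

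The other genes of BA synthesis changed in part with the enzymes. Of the 5 genes listed for the alternative pathway and oxysterol hydroxylases, 4 were tested in KO against WT females on chow, and all 4 fell. Among them were *Cyp27a1*, the sterol 27-hydroxylase, by 0.71 on the log2 scale (adjusted p = 0.00611), *Cyp46a1*, the cholesterol 24-hydroxylase, by 1.75 (adjusted p = 0.00803) and *Cyp39a1*, an oxysterol 7α-hydroxylase, by 0.92 (adjusted p = 0.0224). With SC-435, 3 of the 4 rose in female KO mice and 1 of 4, *Cyp27a1*, in female WT mice; in male KO mice 1 of 5, again *Cyp27a1*, rose. Of the 14 genes for side chain processing, conjugation and later hydroxylation, 7 fell in KO females on chow, *Cyp2c70* included. In female KO mice SC-435 raised 4 and lowered 2 of the 14, and in male KO mice it raised 2 and lowered 1. Of all genes tested, 14.9% passed in KO against WT females on chow. With SC-435, 17.8% passed in female KO, 17.2% in male KO and 4.28% in female WT mice. A list count near its share, such as that of the 14 in male KO mice, is not read as a response of the list. The list medians in KO females on chow were -1.24 and -0.46 on the log2 scale, beside -0.02 for all genes.

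Genes known to control the enzymes were measured in the same livers. Of 15 genes for nuclear receptor and FGF control, 5 fell and 0 rose in KO against WT females on chow, where 14.9% of all genes passed. Among them *Nr1i3* (CAR) fell by 1.24 (adjusted p = 0.00509), *Cebpb* by 1.55 (adjusted p = 0.00551) and *Nr1h4* (FXR) by 0.48 on the log2 scale (adjusted p = 0.0243). SC-435 raised 3 and lowered 1 of the 15 in female KO mice, where 17.8% of all genes passed, and in male KO mice, where 17.2% passed. In female KO mice *Nr1h4* rose by 0.76 (adjusted p = 0.00319). *Nr1h4* also passed and rose in male KO mice. There *Klb* rose by 0.78 (adjusted p = 0.0198) and *Nr0b2*, the SHP repressor, fell by 1.95 (adjusted p = 0.0258). In female WT mice, where 4.28% of all genes passed, *Nr0b2* alone of the 15 passed, and it fell by 1.36 (adjusted p = 0.0345).

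*Nr0b2* was followed in each female group after its values were seen. It was at 64.9 ± 12.6 CPM in WT mice on chow, 25.3 ± 10.7 on SC-435, 36.9 ± 13.6 in KO mice on chow and 21.4 ± 11.2 in KO mice on SC-435 (SD, n = 4 each). The fall from WT to KO on chow was 0.82 on the log2 scale (adjusted p = 0.0448), and the change with SC-435 in KO mice was -0.79 (adjusted p = 0.165). In the list of 9 hepatic FXR targets, 8 were tested in KO against WT females on chow, of which 1 rose and 2 fell, where 14.9% of all genes passed. *Slc51b* (OSTβ) led it with a rise of 2.46 (adjusted p = 0.0153) at levels of 2.19 CPM in KO and 0.396 CPM in WT mice. With SC-435, 1 of the 8 targets tested rose and 1 fell in female KO mice, where 17.8% of all genes passed. In male KO mice 0 of 8 rose and 2 fell, where 17.2% passed. The list medians were -0.06 and 0.03 on the log2 scale. Within the list, *Slc51b* fell by 3.81 in female KO (adjusted p = 0.00287) and by 3.21 in male KO mice (adjusted p = 0.0183).

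The cholesterol list moved with SC-435. Of 22 genes for cholesterol synthesis and uptake, 22 rose in female KO mice, 22 in male KO mice and 10 in female WT mice. The medians were 2.42, 1.76 and 0.92 on the log2 scale, and 17.8%, 17.2% and 4.28% of all genes passed there. In male WT mice 1 of the 22 rose, *Hmgcs1*, where 0.0394% of all genes passed. None of the 22 rose and 1, *Hsd17b7*, fell in KO against WT females on chow, where 14.9% of all genes passed. Among 12 BA transporters, SC-435 raised *Abcc4* (MRP4) in female WT (1.20, adjusted p = 0.00599), female KO (1.07, adjusted p = 0.00258) and male KO mice (1.5, adjusted p = 0.00588). In female KO mice 2 further genes of the list rose and 1 fell, where 17.8% of all genes passed. In male KO mice 3 further genes rose and 1 fell, where 17.2% passed. Of 16 genes of the circadian clock, which *Cyp7a1* is known to follow, none passed in KO against WT females on chow or with SC-435 in female WT mice. In female KO mice 5 rose and 4 fell with SC-435, led by *Ciart*, *Bhlhe41* and *Cry1*, where 17.8% of all genes passed. In male KO mice 2 of the 16 rose, a share below the 17.2% of all genes that passed there. The hour of tissue collection is not given in the labels, and its part in these levels was not tested.

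**Figure D4:**
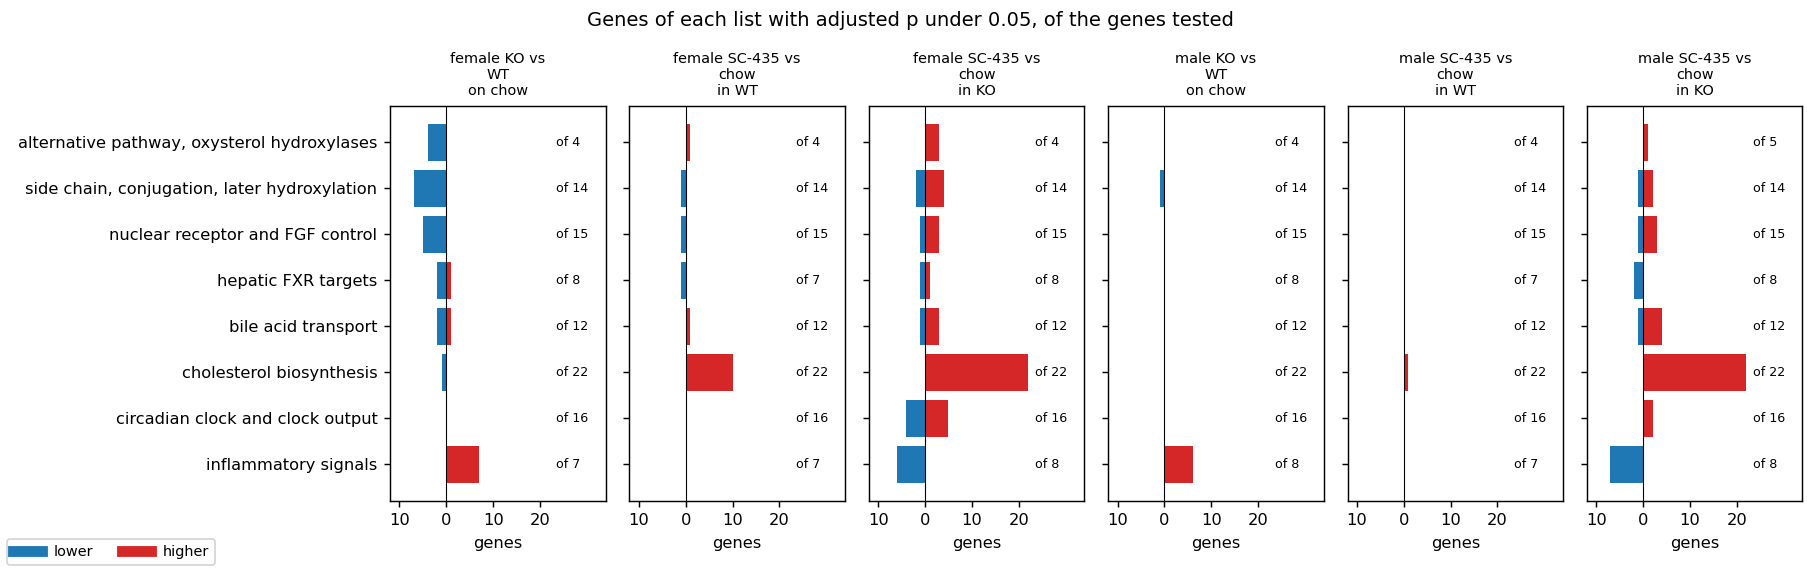
Number of genes of each list that were higher (red, to the right) or lower (blue, to the left) with an adjusted p under 0.05, with the number tested at the right of each bar, in 6 comparisons of 2 groups of 4 mice. The bar for cholesterol biosynthesis reaches 22 of 22 with SC-435 in KO mice of both sexes and 10 of 22 in female WT mice.

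Inflammatory genes and markers of other liver cells were counted in the same comparisons. Of the 10 genes of the inflammatory list, 7 were tested in KO against WT females on chow and 8 in males, and the filter on low counts dropped the rest. All 7 rose in females, where 14.9% of all genes passed, and 6 of 8 in males, where 1.08% passed. SC-435 lowered 6 of 8 in female KO mice, where 17.8% of all genes passed, and 7 of 8 in male KO mice, where 17.2% passed. The filter keeps a gene that is high in 1 group alone, so the genes tested can lean toward those that differ. The same holds for the 8 cholangiocyte markers, of which 7 were tested on chow. The macrophage markers rose in KO females on chow (7 of 8, summed level 387 to 459 CPM in WT and 625 to 909 CPM in KO), as did cholangiocyte markers (5 of 7 tested, 55.6 to 86.0 and 151 to 315 CPM) and stellate markers (3 of 8, 310 to 413 and 448 to 981 CPM). Of 8 hepatocyte markers, 5 fell and 1 rose, with a summed level of 95600 to 119945 CPM in WT and 58825 to 81497 CPM in KO females, and none of the 8 was at 0 in any group. In bulk liver, fewer cells of a type and less RNA per cell cannot be told apart, and the part of these markers in the fall of *Cyp8b1* was not tested. In KO against WT males on chow 4 of 7 cholangiocyte markers rose, and 0 of 8 macrophage, 0 of 8 stellate and 0 of 8 hepatocyte markers passed. The medians of the last 3 lists were 0.75, 0.91 and -0.51 on the log2 scale in males, beside 0.97, 0.43 and -0.47 in females. Of all genes, 1.08% passed in males, or 7.30% without male WT chow replicate 1, and the lists were not counted without that library. In female KO against WT mice on SC-435 *Cyp8b1* was also lower, and 10.9% of all genes passed. There 0 of 8 macrophage markers passed, 2 of 8 hepatocyte markers fell, 5 of 6 cholangiocyte markers rose, and 5 of 8 stellate markers rose and 1 fell.

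With SC-435 the macrophage, cholangiocyte and stellate markers that passed were lower in KO mice. In females 8 of 8 macrophage, 2 of 7 cholangiocyte and 2 of 8 stellate markers fell, and in males 2 of 8, 5 of 7 and 5 of 8 fell, while 0 of 8 hepatocyte markers passed in either sex. The smaller counts lay near the share of all genes that passed, 17.8% in female KO and 17.2% in male KO mice. In female WT mice 0 macrophage, 0 cholangiocyte and 0 stellate markers passed and 1 hepatocyte marker, *Cps1*, rose. Endothelial markers passed in none of the comparisons of genotype or of SC-435 in females, and 2 of 6 rose with SC-435 in male KO mice. Erythroid markers likewise passed in none of those, and 2 of 4 rose with SC-435 in male KO mice. Of the pancreatic acinar list only *Cela1* was tested, and it was lower in KO females on chow and in WT females on SC-435 than in WT females on chow, whose summed level for the list was 13.96 to 61.5 CPM.

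Over the 32 mice, the genes whose log2 CPM followed each enzyme most closely differed between the enzymes. For *Cyp7a1* they were *Pcyt1a* (Pearson's r = 0.895, Spearman's rho = 0.816), *Idi1* (0.89, 0.849), *Ahcyl1* (0.89, 0.874), *Ackr2* (0.875, 0.859) and *Msmo1* (0.874, 0.822). For *Cyp8b1* they were *Ugt1a10* and *Extl1* (r = 0.916 each), *Ugt3a1* (0.915), *Aldh1a1* (0.905) and *Nsdhl* (0.896). *Akr1d1* was followed by *Bche* (r = 0.943), *Papss2* (0.942), *Vldlr* (0.925), *Ctso* (0.92) and *Plscr2* (0.912). *Hsd3b7* had no gene above r = 0.649, the value of *Lgr5*. Between the enzymes, r was 0.728 for *Cyp7a1* with *Cyp8b1* (rho 0.747), 0.607 for *Cyp7a1* with *Akr1d1* (rho 0.656) and 0.161 for *Cyp8b1* with *Akr1d1* (rho 0.353). Within groups, after group means were taken out, these were 0.196, 0.528 and -0.09. Within groups *Cyp7a1* had r = 0.336 with *Pcyt1a*, 0.741 with *Idi1*, 0.566 with *Ahcyl1*, 0.241 with *Ackr2* and 0.365 with *Msmo1*. The named genes kept 0.643 to 0.742 with *Cyp8b1* and 0.773 to 0.877 with *Akr1d1*, and *Lgr5* kept 0.451 with *Hsd3b7*. The values are descriptions over 14201 genes, and the 32 mice share their 8 groups, so they carry no p.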

How the data were processed

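RNA was measured in 1 liver library per mouse from 32 mice. Per the labels, mRNA was selected with poly-T beads and sequenced on Illumina instruments, and the submitters' processing notes name HISAT2 2.0.5, featureCounts 1.5.0-p3, DESeq2 1.20.0, GATK 4.1.1.0 and mm10, without settings. Strand use and the treatment of reads on overlapping genes are not given in the sources used here. The deposited table holds whole-number counts per gene, FPKM values that the authors computed, and gene lengths. The FPKM values were used only for a check: within each library they equal counts over length times 1 factor. Fold changes and p values of the authors' own comparisons, also in the table, were not used.

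Groups came from the labels. Counts were tested with edgeR 4.0.16 in R 4.3.3 (filterByExpr, TMM, glmQLFit, glmQLFTest), 8 libraries per pairwise fit and 16 per interaction, with Benjamini-Hochberg adjustment over all genes tested and a threshold of 0.05. The study's own selection also asked for a log2 fold change beyond 1, which was not applied. A standard error is the log2 fold change divided by the root of the F statistic. The ratio of *Cyp8b1* to *Cyp7a1* had 0.5 added to each count and was tested by exact permutation of mice. The method was tested on simulated data. No pair of libraries within a group was as alike as a resequenced sample (lowest chi-square per gene 18.5 over 48 pairs).

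The members and the gene lists (8 of pathways, 7 of cell types) were chosen with earlier results of these data known. The text names all 4 enzymes in each comparison, from each list at most the 3 genes with the smallest adjusted p, and for each enzyme the 5 protein-coding genes of highest Pearson's r. Other settings were all genes without the filter, library totals alone or size factors by median of ratios in place of TMM, DESeq2 1.42.0 in place of edgeR, a term for the replicate number, 1 fit of all 32 libraries, and each library left out in turn. For the ratio, 5 was added to each count, or group medians were compared.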

Additional observations from a re-analysis of the deposited data

Results flagged for a closer look

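Within groups of 4 mice, each enzyme in CPM and the log2 ratio of *Cyp8b1* to *Cyp7a1* were tested for a value far from the others with Dixon's test, 40 sets in all, of which chance alone flags about 1 in 20. *Cyp7a1* was 62.4 CPM in male KO chow replicate 4, where the other 3 mice lay between 25.5 and 27.0 CPM. *Cyp8b1* was 67.1 CPM in female KO chow replicate 4, where the other 3 lay between 2.69 and 13.7 CPM. The log2 ratio of *Cyp8b1* to *Cyp7a1* was 7.3 in male WT chow replicate 1, where the other 3 lay between 2.47 and 2.7. In that mouse *Cyp7a1* was the lowest of its group and *Cyp8b1* the highest.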

How the results depend on the processing

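The number of enzymes that passed changed under some settings, as did the share of all genes that passed, given in brackets. In KO against WT females on chow it was 2 with library size only (18.5%), 0 with the replicate block (10.8%) and 0 to 1 when 1 library was left out. With all 32 libraries in 1 fit it was 1 for SC-435 in female WT mice (1.07%), 2 for SC-435 in female KO mice (7.93%), 2 for female KO on SC-435 against WT on chow (4.91%) and 0 for KO against WT females on SC-435 (1.16%). In that fit it was 1 for KO against WT males on chow (23.0%), 1 for SC-435 in male WT mice (2.34%), 2 for male KO on SC-435 against WT on chow (3.42%), and 1 and 2 for female against male WT (9.08%) and KO mice (4.06%) on chow. DESeq2 gave 1 for KO against WT males on chow (6.83%), for SC-435 in male WT mice (1.35%) and for male KO on SC-435 against WT on chow (2.68%). Leaving out 1 library gave 2 to 3 for SC-435 in female KO mice and 0 to 1, 0 to 2 and 0 to 3 in these male comparisons, with the highest counts of the latter reached without male WT chow replicate 1 (7.30%, 2.53% and 12.2%), and 0 to 1 for female against male WT mice, the female genotype by SC-435 interaction and the sex by SC-435 interaction in KO mice. The cause was not tested.

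Directions turned only for values that had not passed. With group medians the ratio of *Cyp8b1* to *Cyp7a1* differed by 0.15 for KO against WT females on SC-435, 0.10 for KO against WT males on chow and 0.78 for female against male WT mice. With the replicate block *Cyp7a1* was -0.20 in KO against WT females on chow, *Akr1d1* 0.10 in KO against WT males on chow and *Hsd3b7* 0.031 in female against male KO mice. With library size only *Akr1d1* was 0.16 in KO against WT males on chow, and *Hsd3b7* was 0.070 for SC-435 in male WT mice, 0.029 for female against male KO mice, and -0.075 and -0.064 for the female and male genotype by SC-435 interactions. Without the filter on low counts the female interaction of *Akr1d1* was 0.0063.

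Log2 fold changes that crossed 0 when 1 library was left out ran as follows. *Cyp7a1* ran from -0.21 to 0.59 for KO against WT females on chow, -0.31 to 0.0085 for KO against WT males on SC-435 and -0.82 to 0.058 for the sex by SC-435 interaction, *Cyp8b1* from -0.21 to 0.037 for KO against WT males on SC-435, and *Akr1d1* from -0.30 to 0.18 for KO against WT males on chow and -0.13 to 0.071 for the female interaction. *Hsd3b7* ran from -0.14 to 0.49 and -0.21 to 0.16 for SC-435 in male KO and WT mice, -0.48 to 0.055 for male KO on SC-435 against WT on chow, -0.46 to 0.076 for KO against WT males on SC-435, -0.30 to 0.29 for female against male KO mice, -0.075 to 0.47 and -0.13 to 0.49 for the female and male genotype interactions, and -0.036 to 0.60 for the sex by SC-435 interaction.

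The block changed 1 call, *Cyp8b1* in KO against WT females on chow (-4.13, adjusted p = 0.0532), and the replicate numbers did not pair the mice, since in no comparison did all 4 pairs correlate above 0.1. DESeq2 gave no adjusted p for *Cyp8b1* with SC-435 in female KO mice, so it is not counted there. Counts of 12 to 78 limit *Hsd3b7*, and the spread of 4 mice limits the rest.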
